A study of Mus musculus with 24 samples.

Results

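The collagen gene family was followed through muscle regeneration in 2 sorted cell populations. Its members are the genes whose symbol is Col, a type number, the letter a and a chain number, taken from array probe sets (groups of probes that read 1 transcript) annotated with a single gene. This rule found 44 collagen genes among 23279 genes with a symbol, each read by 1 probe set. Mouse tibialis anterior muscle, a muscle of the lower leg, was injured with cardiotoxin, a snake venom toxin that destroys muscle fibres. Sorting was done on day 0, without injury, and on days 2, 4 and 8 of regeneration. Satellite cells, the muscle stem cells, were gated as CD45-, Sca1-, CD34+/lo, CD31- and alpha7integrin+, and endothelial cells, which line blood vessels, as CD45-, Sca1+, CD34+ and CD31+. Each of the 8 groups of 1 cell type and 1 day held 3 arrays labelled as biological replicates. Strain, sex and age of the mice, and whether muscles were pooled for a replicate, are not given in the labels.

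Collagens are built from 3 chains wound into a triple helix inside the cell and are then secreted. Fibrillar collagens (types I, II, III, V, XI, XXIV and XXVII) pack side by side into the fibres that give connective tissue its tensile strength. Basement membrane collagens form or attach to the thin sheet beneath endothelium and around each muscle fibre: type IV makes its network, and types XV and XVIII carry sugar chains and release endostatin-like fragments. Collagen VI forms beaded filaments next to that sheet, and loss of it causes muscle disease in people and mice. FACIT collagens (types IX, XII, XIV, XVI, XIX, XX and XXII) sit on the surface of fibrils.

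Values are log2 expression from RMA, a method that corrects, normalises and summarises array probes, so a difference of 1 is a doubling of signal. Replicate values are given in the order of the replicate number. A gene was tested if it was above the array's median on at least 3 of 24 arrays, which 29 of the 44 collagen genes and 14064 genes in all were. A gene was called where limma's adjusted p was below 0.05 and the log2 difference was at least 1, and the words rise and fall are kept for called genes. A fold is given only where the lower group's mean was at least 1 above the array medians, because signal near the median holds much background. RNA input was held at 750 pg per array, so fewer cells of a type and less RNA per cell cannot be told apart. Array medians were between 4.11 and 4.40.

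Both populations carried the defining genes of their label on day 0, and both also carried genes of other cells. The mean of 10 satellite cell genes such as Pax7 and Itga7 was 8.58 ± 0.09 (SD, n = 3) in uninjured satellite arrays and 4.65 ± 0.11 (SD, n = 3) in uninjured endothelial arrays. The mean of 12 endothelial genes such as Pecam1 and Cdh5 was 10.07 ± 0.13 (SD, n = 3) in the endothelial arrays and 6.21 ± 0.03 (SD, n = 3) in the satellite arrays, where all 12 group means were above the array medians. The satellite arrays of day 2 stood apart: their satellite gene mean was 5.46 ± 0.18 (SD, n = 3), and the mean of 11 leukocyte genes was 10.69, 9.02 and 10.65, against 4.44, 3.80 and 3.97 on day 0. Replicate 2 of that group differed from the other two, with an endothelial gene mean of 8.65 against 6.72 and 6.98, so collagen calls that change without it are given below. The part that these cells play in the collagen values was not tested.

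Uninjured satellite cells carried more signal for fibrillar and type VI chains than uninjured endothelial cells, and for no collagen gene was the reverse called. Of the 29 tested collagen genes, 11 were called higher in satellite cells and 0 lower by limma, while 17% of all genes tested were called in either direction, 7.59% of them higher. At an unadjusted p below 0.05, 12 collagen genes were higher and 1, Col4a2, was lower. By class, 6 of 9 tested fibrillar chains and 3 of 4 tested type VI chains were higher, with median differences of 1.44 and 2.49, against a median of -0.01 over all genes. None of the 4 tested basement membrane chains was called, and their median difference was -0.12. The filter works on single genes, so a chain could enter through the cell type in which it is high, and these class counts are descriptions.

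Col3a1, the single chain of type III collagen, showed the largest gap. It read 8.72, 9.27 and 8.89 in uninjured satellite arrays and 5.53, 5.31 and 4.99 in uninjured endothelial arrays. The groups were far apart, with a log2 difference of 3.68 (SE 0.26, adjusted p = 1.57e-09), a 12.9-fold higher signal in satellite cells. Col6a1, Col6a2 and Col6a3, the 3 chains that assemble into the main form of collagen VI, were also clearly separated. Col6a1 read 7.50, 8.64 and 8.33 in satellite and 5.45, 5.64 and 5.12 in endothelial arrays (log2 difference 2.76, SE 0.38, adjusted p = 9.91e-06, 6.75-fold). The differences of Col6a2 and Col6a3 were 2.32 (SE 0.34, adjusted p = 1.87e-05) and 2.65 (SE 0.48, adjusted p = 0.000257). Col5a2, Col1a2, Col1a1, Col5a1 and Col5a3, chains of types I and V, were higher by between 1.16 and 2.13, and so were the FACIT chains Col20a1 (1.51) and Col12a1 (1.11).

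The same arrays differed in markers of matrix-producing cells. The mean of 12 fibroblast genes was 6.47 ± 0.07 (SD, n = 3) in uninjured satellite arrays and 4.19 ± 0.17 (SD, n = 3) in uninjured endothelial arrays. Its members did not move as 1 block: Dcn and Dpt, which coat collagen fibrils, were at 10.02, 10.02 and 10.10, and at 10.97, 10.41 and 10.42, in the satellite arrays, while Pdgfra, a defining receptor of muscle fibroblasts, was below the array medians there at 3.01, 2.94 and 3.12. The mean of 12 pericyte and smooth muscle genes was 9.99 ± 0.47 (SD, n = 3) in the satellite and 7.50 ± 0.44 (SD, n = 3) in the endothelial arrays. Their part in the collagen difference was not tested.

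**Figure D1:**
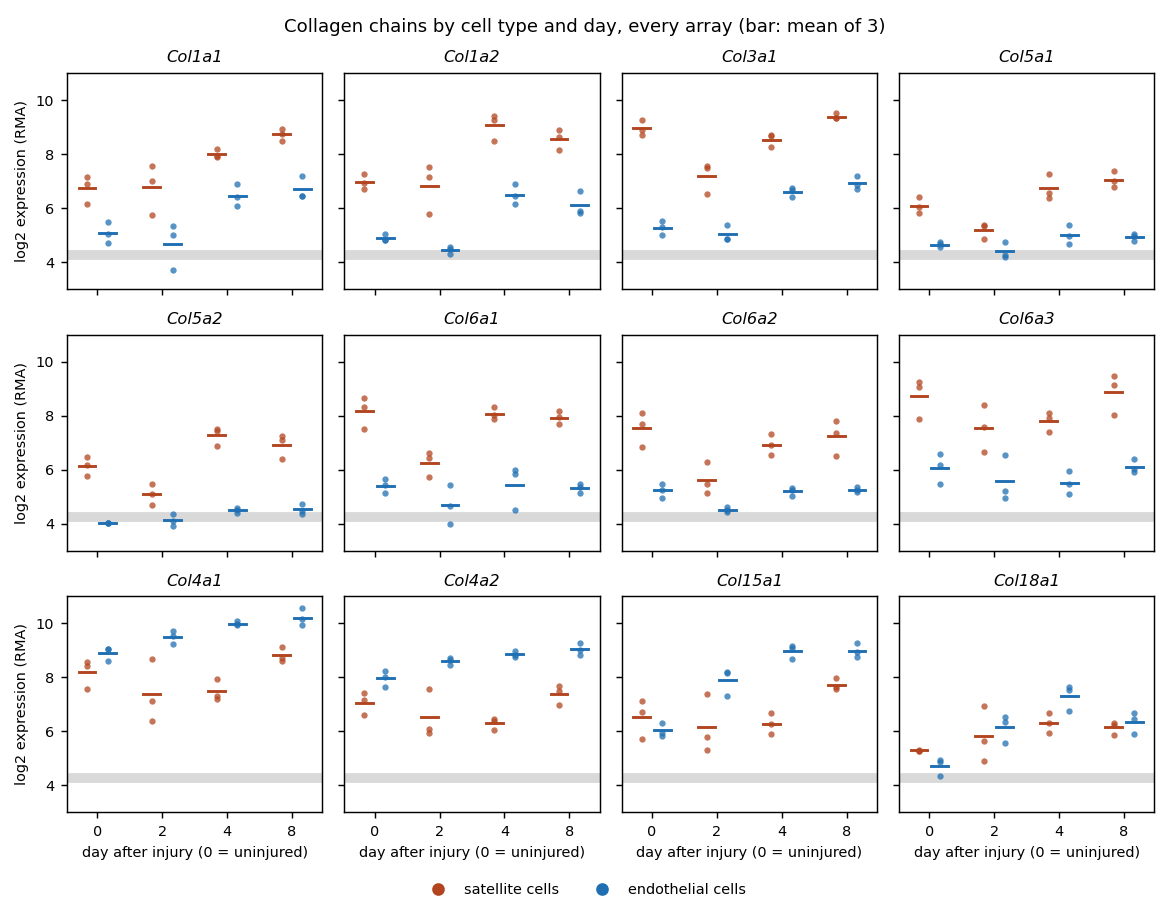
Log2 expression (y axis) by day after injury (x axis) for 12 collagen chains; each point is 1 array, each bar the mean of 3 arrays, red satellite cells, blue endothelial cells, and the grey band spans the array medians from 4.11 to 4.40. The fibrillar and type VI chains shown lie higher in satellite cells throughout, and Col4a1, Col4a2 and Col15a1 lie higher in endothelial cells from day 2 on, apart from 1 satellite array of Col15a1 on day 2.

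In satellite cells the collagen genes called on day 2 were lower than on day 0 and most of those called on days 4 and 8 were higher, and in endothelial cells all called changes from day 0 were rises. In satellite cells, 5 of 29 tested collagen genes fell from day 0 to day 2 and 0 rose, with 20.5% of all genes called in either direction and 9.67% lower. The collagen share of 17.2% was thus near the share among all genes, and the count was 8 without replicate 2 of day 2 and 3 without its replicate 1. On day 4, 4 were higher than on day 0 and 1 was lower, where 12% of all genes were called, and without replicate 1 of day 0 the 5 calls were 3. On day 8, 4 were higher and 0 lower, against 6.38% of all genes called and 4.38% called higher. From day 2 to day 4, 8 rose and 0 fell, a share of 27.6% where 10.5% of all genes were called and 4.79% were called higher. From day 4 to day 8, limma called 0 collagen genes and 1.68% of all genes (1.16% higher and 0.519% lower), with 7 collagen genes higher at an unadjusted p below 0.05. Without replicate 2 of day 2 in the fit, whose spread enters every comparison, 3 of these were called from day 4 to day 8: Col4a1 (1.34, adjusted p = 0.0107), Col4a2 (1.09, adjusted p = 0.0116) and Col15a1 (1.45, adjusted p = 0.0148). Without replicate 1 of day 2, Col4a1 alone was called there (adjusted p = 0.0402).

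In endothelial cells fewer of all genes tested were called at each step than in satellite cells, which did not hold at every step for collagen genes. On day 2, 2 of 29 tested collagen genes were higher than on day 0, a share near the 6.73% of all genes called (3.73% higher). Without replicate 2 of day 0 or replicate 2 or 3 of day 2 there was 1. On day 4, 5 were higher (17.2% of those tested) against 5.33% of all genes, and on day 8, 5 were higher against 2.05% of all genes. The day 8 count was 8 without replicate 2 of satellite day 2, and 3 without any 1 replicate of endothelial day 0 or replicate 1 or 3 of endothelial day 8. From day 2 to day 4, 3 rose and 0.37% of all genes were called. From day 4 to day 8, limma called 0 collagen genes and 0.121% of all genes (0.0284% higher and 0.0924% lower), and 1, Col18a1, was lower at an unadjusted p below 0.05. No collagen gene was called lower at a later day than at an earlier one in endothelial cells, where at an unadjusted p below 0.05 Col6a2 was lower on day 2 than on day 0.

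**Figure D2:**
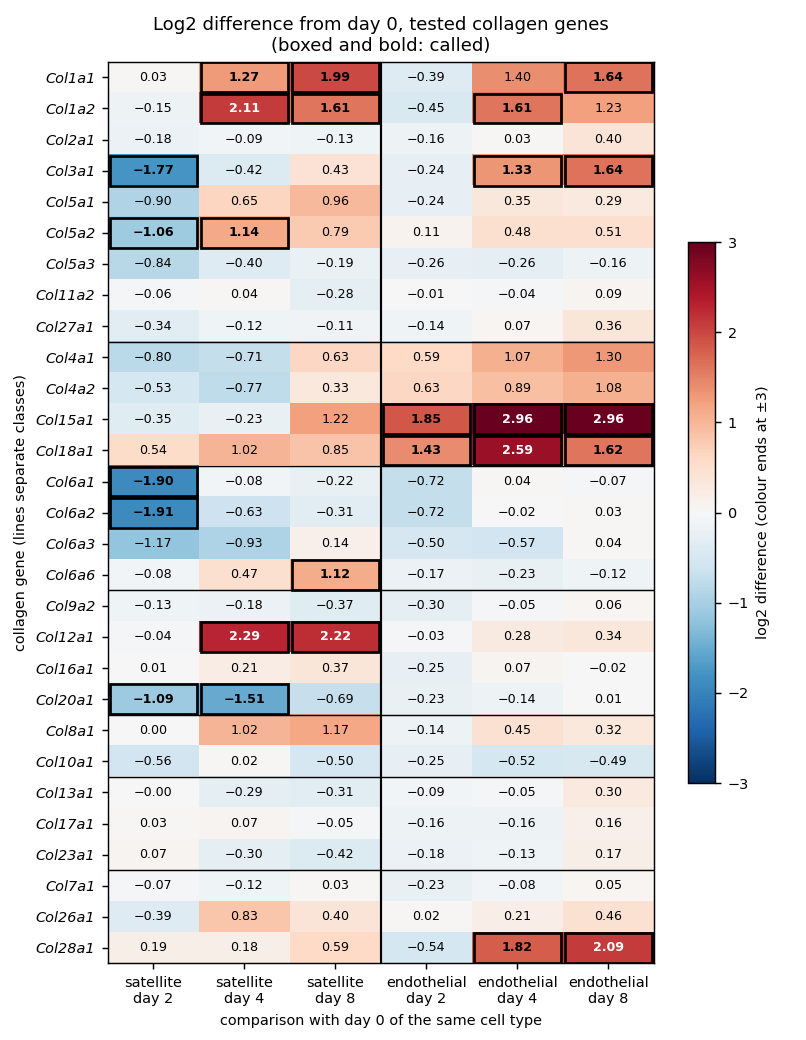
Log2 difference from day 0 (colour and printed number) for the 29 tested collagen genes (rows, grouped by class) in satellite and endothelial cells on days 2, 4 and 8 (columns); boxed bold values were called. The boxes in satellite cells lie among fibrillar, type VI and FACIT chains, and those in endothelial cells among Col15a1, Col18a1, Col28a1 and the chains of types I and III.

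The fibrillar chains of the satellite arrays did not fall together on day 2. These arrays had a satellite gene mean of 5.46 ± 0.18, against 8.58 ± 0.09 on day 0 (SD, n = 3). Their leukocyte gene mean was 10.12 ± 0.95, against 4.07 ± 0.33 (SD, n = 3). The part of other cells in the values that follow was not tested. Col3a1 dropped from 8.72, 9.27 and 8.89 to 6.52, 7.47 and 7.57, without overlap (log2 difference -1.77, SE 0.26, adjusted p = 2.08e-05, 3.41-fold lower). Col5a2, a chain of type V collagen, which seeds fibrils and limits their width, went from 5.76, 6.19 and 6.47 to 4.67, 5.48 and 5.08 (-1.06, SE 0.25, adjusted p = 0.00295). That call ended at -0.89 without replicate 3 of day 0 and at -0.86 without replicate 1 of day 2. In contrast, the chains of type I collagen, the most abundant fibrillar collagen, overlapped between these days. Col1a1 read 6.16, 7.15 and 6.91 on day 0 and 5.73, 7.00 and 7.56 on day 2, a difference of 0.03 with a 95% confidence interval from -0.85 to 0.91. The interval for Col1a2 ran from -0.89 to 0.60. These intervals do not reach the fall of Col3a1.

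By day 4 the type I chains had risen in satellite cells. Col1a2, which pairs with Col1a1 in the type I helix, read 6.71, 6.91 and 7.25 on day 0, 5.77, 7.51 and 7.16 on day 2, 8.49, 9.43 and 9.28 on day 4 and 8.17, 8.65 and 8.89 on day 8. The day 4 and day 8 arrays all lay above every earlier array, by 2.11 (SE 0.36, adjusted p = 0.000248, 4.30-fold) and 1.61 (SE 0.36, adjusted p = 0.00552, 3.05-fold) over day 0. Col1a1 read 8.20, 7.89 and 7.95 on day 4 and 8.75, 8.95 and 8.49 on day 8, again above every earlier array. In the satellite arrays of day 4, 9 of 11 leukocyte genes (mean 7.94 ± 0.61, against 4.07 ± 0.33 on day 0; SD, n = 3) and 5 of 12 endothelial genes were also called higher than on day 0, and their part was not tested. Over all genes, 6.53% were called higher in that comparison. The Col1a1 rise on day 8 was 1.99 (SE 0.42, adjusted p = 0.00388, 3.98-fold). Its day 4 rise of 1.27 (SE 0.42, adjusted p = 0.0421) was close to the threshold and was lost when any of 6 arrays was left out, namely replicates 1 and 3 of satellite day 0, any of satellite day 4, or replicate 2 of endothelial day 0, with adjusted p up to 0.181.

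The type III and type V chains returned by another course. From day 2 to day 4 in satellite cells, Col5a2 rose by 2.20 (SE 0.25, adjusted p = 3.37e-06), Col5a1 by 1.55 (SE 0.26, adjusted p = 0.000263) and Col3a1 by 1.35 (SE 0.26, adjusted p = 0.000921). Col5a2 reached 6.89, 7.51 and 7.44 on day 4, above every day 0 array (1.14, SE 0.25, adjusted p = 0.00294), although without replicate 1 of day 0 the difference was 0.95 and was not called. Col3a1 read 8.26, 8.69 and 8.68 on day 4 and 9.33, 9.53 and 9.32 on day 8, where its difference from day 0 was 0.43 with an interval from -0.10 to 0.97. On day 8, then, type I chains stood above their uninjured level by 1.61 and 1.99 on the log2 scale, while the interval for Col3a1 ended below 1. Each chain was tested against its own day 0 level, and the chains were not tested against each other. Col5a1 was 0.96 above day 0 on day 8 (adjusted p = 0.0203), short of the minimum difference, and passed it without replicate 1 of day 0 (1.12) or replicate 2 of day 8 (1.10).

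Endothelial cells gained signal for type I and type III chains from day 4 on, from a lower base. Col3a1 read 5.53, 5.31 and 4.99 on day 0 and 5.38, 4.86 and 4.85 on day 2, then 6.40, 6.75 and 6.67 on day 4 and 6.72, 7.19 and 6.84 on day 8. All later arrays lay above all earlier ones, with rises over day 0 of 1.33 on day 4 (SE 0.26, adjusted p = 0.00244, 2.52-fold) and 1.64 on day 8 (SE 0.26, adjusted p = 0.000895, 3.12-fold). Col1a2 read 4.82, 4.81 and 5.05 on day 0, 4.56, 4.28 and 4.48 on day 2, 6.14, 6.45 and 6.89 on day 4 and 5.83, 6.64 and 5.90 on day 8. Its day 4 rise was 1.61 (SE 0.36, adjusted p = 0.00692), and its day 8 difference of 1.23 was not called (adjusted p = 0.0773) although the arrays did not overlap. Without replicate 2 or replicate 1 of satellite day 2 the day 8 value was called (adjusted p = 0.0431 and 0.02). From day 2 to day 4 Col1a2 rose by 2.06 (SE 0.36, adjusted p = 0.00657), a call that ended without replicate 3 of endothelial day 4 (1.86, adjusted p = 0.0532).

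Col1a1 in endothelial cells lay on the threshold. It read 5.50, 5.02 and 4.69 on day 0, 5.33, 5.01 and 3.69 on day 2, 6.89, 6.09 and 6.42 on day 4 and 6.47, 7.20 and 6.46 on day 8. The later arrays lay above all earlier ones, by 1.40 on day 4 (adjusted p = 0.0507, not called) and 1.64 on day 8 (SE 0.42, adjusted p = 0.0424, called). The day 8 call was lost without any 1 of 12 arrays: any of endothelial day 0 or day 8, replicate 3 of endothelial day 4, replicate 3 of satellite day 0, replicates 2 and 3 of satellite day 4, or replicates 1 and 3 of satellite day 8 (differences from 1.40 to 1.85, adjusted p up to 0.184). The day 4 value was called without any 1 of 6 arrays: any of satellite day 2, replicate 1 of satellite day 0, or replicates 1 and 3 of endothelial day 2.

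Over the same days the fibroblast gene mean of the endothelial arrays was 4.19 ± 0.17 on day 0, 4.05 ± 0.20 on day 2, 4.66 ± 0.24 on day 4 and 4.81 ± 0.21 on day 8 (SD, n = 3). Of its 9 tested genes, limma called 0 on day 4, when 4 were higher at an unadjusted p below 0.05, and 1, Lum, on day 8 (1.95, SE 0.48, adjusted p = 0.0317). Over all genes, 5.33% were called on day 4 and 2.05% on day 8. Dpt read 7.09, 4.07 and 5.32 on day 4, so replicate 1 was high and replicate 2 was below the array medians. The fibroblast gene mean, at 4.90, 4.41 and 4.66, and Col1a1, at 6.89, 6.09 and 6.42, had the same order of replicates. Col3a1, at 6.40, 6.75 and 6.67, and Col1a2, at 6.14, 6.45 and 6.89, were lowest in replicate 1. The pericyte and smooth muscle gene mean moved the other way, from 7.50 ± 0.44 on day 0 to 5.77 ± 0.57 on day 4 and 5.88 ± 0.19 on day 8 (SD, n = 3). The part of fibroblast RNA in these rises was not tested.

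The sequences just upstream of the annotated starts are shown for the chains whose rises carry the endothelial results, because genes that changed together can be compared in their promoters. They are RefSeq sequence of build GRCm38.p6, 120 bases 5′ to 3′ on the gene's strand, ending at the base before the start. Capitals mark a CCAAT box, the GC box letters GGGCGG, or the TATA box letters TATAAA, on either strand.
Col1a2, chr6:4505498-4505617, plus strand: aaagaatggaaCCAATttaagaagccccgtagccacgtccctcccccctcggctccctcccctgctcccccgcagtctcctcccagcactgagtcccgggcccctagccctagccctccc
Col3a1, chr1:45311418-45311537, plus strand: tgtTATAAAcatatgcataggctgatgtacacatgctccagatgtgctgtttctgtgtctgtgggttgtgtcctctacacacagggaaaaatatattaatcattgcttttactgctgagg
Col15a1, chr4:47207892-47208011, plus strand: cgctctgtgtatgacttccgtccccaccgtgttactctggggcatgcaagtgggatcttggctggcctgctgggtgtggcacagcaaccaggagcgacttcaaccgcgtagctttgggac
Col18a1, chr10:77166531-77166650, minus strand: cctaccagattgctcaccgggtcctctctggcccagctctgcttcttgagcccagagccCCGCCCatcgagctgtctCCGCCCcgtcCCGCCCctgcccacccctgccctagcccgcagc
Col18a1, second start, chr10:77113706-77113825, minus strand: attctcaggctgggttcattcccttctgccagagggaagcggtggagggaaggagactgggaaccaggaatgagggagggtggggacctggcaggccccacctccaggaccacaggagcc
These stretches share no marked motif across all 4 genes. Within these 120 bases the first Col18a1 start has 3 copies of GGGCGG on the opposite strand, Col1a2 has 1 CCAAT, Col3a1 has 1 TATAAA and Col15a1 has none of the 3. Over windows from 250 bases before to 50 bases after a start, GGGCGG was present in 60.5% of 38 collagen windows (35 genes) and 35.7% of all 32851 windows. CCAAT was present in 34.2% of collagen and 37.4% of all windows, and TATAAA in 13.2% and 13.6%. In these longer windows Col1a2 also has GGGCGG at -205 and -188 and a further CCAAT at base 1. The first Col18a1 start also has CCAAT there, at -210, so these 2 genes share both motifs. A match is a run of letters and not a measured binding site.

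In endothelial cells the basement membrane chains that were called all rose. Col15a1, whose product links the basement membrane to the surrounding matrix, read 6.32, 5.93 and 5.83 in uninjured endothelial arrays, 7.30, 8.19 and 8.15 on day 2, 8.69, 9.17 and 9.10 on day 4 and 9.26, 8.95 and 8.77 on day 8. Every injured array was above every uninjured one, and days 4 and 8 overlapped each other and lay above day 2. The rises over day 0 were 1.85 (SE 0.41, adjusted p = 0.00657, 3.61-fold), 2.96 (SE 0.41, adjusted p = 9.53e-05, 7.79-fold) and 2.96 (SE 0.41, adjusted p = 0.000269, 7.80-fold). These calls held in every fit that left out 1 array. In the same arrays the mean of the 11 leukocyte genes was 4.12 ± 0.09 on day 0, 7.06 ± 1.27 on day 2, 7.36 ± 1.16 on day 4 and 5.40 ± 0.50 on day 8 (SD, n = 3), with 6, 8 and 2 of the 11 called higher on days 2, 4 and 8, and its part in the rises was not tested. Over all genes, 3.73%, 3.11% and 1.11% were called higher on those days.

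Col18a1, the precursor of endostatin, followed a peaked course in endothelial cells. It read 4.86, 4.35 and 4.94 on day 0, 5.58, 6.53 and 6.33 on day 2, 7.65, 7.51 and 6.75 on day 4 and 6.66, 5.89 and 6.44 on day 8. Each injured group was above the uninjured arrays, by 1.43 (SE 0.38, adjusted p = 0.0222), 2.59 (SE 0.38, adjusted p = 0.000187) and 1.62 (SE 0.38, adjusted p = 0.0262), and the day 8 arrays lay below the day 4 arrays without the step being called (-0.97, adjusted p = 0.469). The day 2 call was lost without replicate 2 of endothelial day 0 or replicates 2 and 3 of endothelial day 2 (adjusted p up to 0.103). The day 8 call was lost without any array of endothelial day 0, or without replicates 1 and 3 of endothelial day 8 (1.43 to 1.73, adjusted p up to 0.12).

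Col4a1 and Col4a2, the 2 chains of the common form of type IV collagen, lie head to head. Their annotated starts are 22 bases apart, both counted, at chr8:11312826 on the minus strand and chr8:11312805 on the plus strand of GRCm38.p6, and their windows share 78 bases. As annotated, the first 22 bases of the 2 transcripts thus overlap. The 30 bases around both starts are shown because the starts lie so close, with GGGCGG in capitals. That GGGCGG lies downstream of both starts, from base 10 of Col4a1 and base 8 of Col4a2, and a role for it was not tested.
Col4a1 and Col4a2, chr8:11312801-11312830, plus strand: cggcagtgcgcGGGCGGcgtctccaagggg
Col3a1 and Col5a2 on chromosome 1, and Col6a2 and Col6a1 on chromosome 10, are likewise neighbours among protein-coding genes.

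Both type IV chains had high signal in endothelial cells. Col4a1 read 9.07, 9.07 and 8.60 on day 0, 9.25, 9.53 and 9.73 on day 2, 9.96, 10.07 and 9.93 on day 4 and 10.57, 9.92 and 10.14 on day 8. Col4a2 read 8.02, 8.24 and 7.63, then 8.45, 8.63 and 8.70, then 8.77, 8.97 and 8.83, and 9.28, 8.83 and 9.01 on those days. For both genes every injured array was above every uninjured one, yet no difference from day 0 was called. On day 8 the differences were 1.30 for Col4a1 (SE 0.39, adjusted p = 0.0923, 2.46-fold) and 1.08 for Col4a2 (SE 0.32, adjusted p = 0.0881, 2.11-fold), and on day 4 they were 1.07 (adjusted p = 0.117) and 0.89 (adjusted p = 0.108). The error in this fit is shared by all 8 groups and included the spread of the satellite day 2 arrays. Without replicate 2 of that group the same differences were called for Col4a1 on day 4 (adjusted p = 0.0194) and day 8 (adjusted p = 0.0115) and for Col4a2 on day 8 (adjusted p = 0.0114), and Col4a1 on day 8 was also called without replicate 1 of it (adjusted p = 0.0403).

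In satellite cells replicate 2 of day 2 had the highest values of the basement membrane chains on that day. On day 2, Col4a1 read 6.37, 8.66 and 7.12 against 7.58, 8.56 and 8.43 on day 0, and Col15a1 read 5.31, 7.38 and 5.78 against 5.70, 7.12 and 6.70. Col18a1 read 4.90, 6.95 and 5.64 on day 2. For all of these, and for Col4a2 (5.93, 7.55 and 6.09), replicate 2 was the highest of its group, as it was for the endothelial gene mean and for Pecam1 (8.66, 10.78 and 9.17). Limma called 0 of the 4 tested basement membrane chains on day 2, and 0 had an unadjusted p below 0.05. Without replicate 2, the falls of Col4a1 (-1.44, SE 0.31, adjusted p = 0.00127) and Col4a2 (-1.04, SE 0.26, adjusted p = 0.00384) were called, and with them 8 collagen genes in place of 5, where 23.1% of 13991 genes were called. Without replicate 1, in contrast, 3 were called. Col18a1, at 1.02 over day 0 on day 4 (adjusted p = 0.0762), was called there without replicate 2 (adjusted p = 0.0211) or replicate 1 (adjusted p = 0.0407), and without replicate 2 it also rose from day 2 to day 4 (1.03, adjusted p = 0.036).

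Later satellite arrays were tighter. Col4a1 read 7.92, 7.31 and 7.19 on day 4 and 8.59, 9.12 and 8.73 on day 8, and Col15a1 read 6.67, 6.25 and 5.91 on day 4 and 7.57, 7.99 and 7.63 on day 8. In both genes the day 8 arrays were above the day 4 arrays, by 1.34 (SE 0.39, adjusted p = 0.0918) and 1.45 (SE 0.41, adjusted p = 0.0805), short of a call. The endothelial gene mean in these arrays was 7.58, 6.87 and 6.87 on day 4 and 6.95, 8.02 and 7.81 on day 8, with overlap between the days. Like Col4a1 and Col15a1, it was highest in replicate 1 on day 4. Col4a2, at 6.36, 6.44 and 6.06, was highest in replicate 2 on that day, and Col18a1, at 6.30, 5.93 and 6.68, in replicate 3. On day 8 all of them were lowest in replicate 1 and highest in replicate 2. The pericyte and smooth muscle mean went from 6.86 ± 0.19 to 8.74 ± 0.54 (SD, n = 3), with 7 of its 12 genes called higher on day 8 than on day 4. Over all genes, 1.16% were called higher at that step. The part of endothelial, pericyte or smooth muscle RNA was not tested. Over day 0, Col15a1 on day 8 was higher by 1.22 (SE 0.41, adjusted p = 0.0702), and this was called without replicate 2 of satellite day 0 or without replicate 1 or 2 of satellite day 2 (adjusted p from 0.0162 to 0.0469).

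Type VI chains fell in satellite cells on day 2, and limma called none of the 4 tested between days in endothelial cells, where Col6a2 on day 2 alone had an unadjusted p below 0.05. Col6a1 went from 7.50, 8.64 and 8.33 on day 0 to 5.74, 6.42 and 6.61 on day 2, and Col6a2 from 6.84, 8.11 and 7.69 to 5.13, 6.30 and 5.48. Both groups were separate, with falls of -1.90 (SE 0.38, adjusted p = 0.00062, 3.73-fold) and -1.91 (SE 0.34, adjusted p = 0.000171, 3.76-fold). Col6a3, the longest of the 3 chains, read 7.87, 9.26 and 9.05 on day 0 and 6.67, 8.41 and 7.58 on day 2, which overlapped (-1.17, SE 0.48, adjusted p = 0.0749). Without replicate 1 of day 0 or replicate 2 of day 2, its fall was called (-1.60 in both cases, adjusted p = 0.0251 and 0.0208).

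By day 4 Col6a1 and Col6a2 had risen again in satellite cells, by 1.82 (SE 0.38, adjusted p = 0.00222) and 1.29 (SE 0.34, adjusted p = 0.0121) over day 2. The Col6a2 rise was lost without replicate 1 or 3 of day 2 or replicate 3 of day 4 (adjusted p up to 0.0888). On day 8 the 3 chains overlapped their uninjured arrays: Col6a1 read 7.69, 8.16 and 7.95, Col6a2 6.52, 7.82 and 7.37, and Col6a3 8.02, 9.47 and 9.13. The intervals of the differences from day 0 were -1.01 to 0.57, -1.01 to 0.39 and -0.86 to 1.14. In endothelial cells Col6a1 read 5.99, 4.50 and 5.84 on day 4, overlapping day 0, and its interval ran from -0.75 to 0.83. None of these 3 was called higher than on day 0, although the interval of Col6a3 reaches above 1, and the fourth tested type VI chain, Col6a6, was called higher on day 8 (1.12).

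The day 2 falls of type VI and type III chains came in arrays whose marker genes also moved. Among 9 tested fibroblast genes 6 were called lower and 1 higher on day 2, among 12 pericyte and smooth muscle genes all 12 were lower, and among 11 leukocyte genes all 11 were higher. Over all genes, 9.67% were called lower and 10.9% higher on that day. The pericyte and smooth muscle mean was 9.44, 10.29 and 10.23 on day 0, 6.32, 7.96 and 6.58 on day 2, 6.63, 6.98 and 6.97 on day 4 and 8.18, 9.26 and 8.77 on day 8, and it had not regained its day 2 loss on day 4. From day 2 to day 4, when that mean stayed low, 8 collagen genes rose, Col6a1 and Col1a2 among them. Col6a3 (0.25), Col4a1 (0.09), Col4a2 (-0.24) and Col15a1 (0.12) were among those not called. The leukocyte gene mean went over that step from 10.12 ± 0.95 to 7.94 ± 0.61 (SD, n = 3). The satellite gene mean went from 5.46 ± 0.18 to 7.74 ± 0.47 (SD, n = 3). The part of any of these cells in the falls and in the later rises was not tested.

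Outside the fibrillar, basement membrane and main type VI chains, 5 tested collagen genes were called between days, each in 1 cell type. Col12a1, a FACIT chain that joins fibrils to the matrix around them, read 4.63, 4.80 and 4.67 in uninjured satellite arrays, 4.37, 5.20 and 4.42 on day 2, 6.38, 7.12 and 7.46 on day 4 and 7.06, 6.58 and 7.11 on day 8. The day 4 and day 8 arrays were all above the earlier ones, by 2.29 (SE 0.28, adjusted p = 6.36e-06) and 2.22 (SE 0.28, adjusted p = 2.04e-05) over day 0. In endothelial arrays Col12a1 stayed between 3.19 and 4.23, below the lowest satellite value. These were the largest rises over day 0 of any collagen gene in satellite cells on both days, and no fold is given because the uninjured signal was near the array medians.

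Col28a1, a collagen best known from peripheral nerve, showed the opposite division. In endothelial arrays it read 3.69, 3.80 and 4.12 on day 0, 2.82, 3.63 and 3.54 on day 2, 4.67, 6.17 and 6.24 on day 4 and 5.55, 6.25 and 6.09 on day 8. Its group means were below the array medians on days 0 and 2 and above them afterwards, with rises over day 0 of 1.82 (SE 0.36, adjusted p = 0.00275) and 2.09 (SE 0.36, adjusted p = 0.00184). Satellite arrays read 2.97 to 4.31 on all days. Of 10 listed Schwann cell genes, 7 were measured. Their mean in the endothelial arrays was 3.63 ± 0.21 on day 0, 3.56 ± 0.06 on day 4 and 3.58 ± 0.12 on day 8 (SD, n = 3). None of their group means was above the array medians on days 4 and 8. The part of Schwann cells in the Col28a1 values was not tested.

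Col20a1, Col6a6 and Col26a1 were called between days in satellite cells. Col20a1, a FACIT chain, read 6.15, 5.74 and 5.82 on day 0, 4.53, 5.12 and 4.78 on day 2, 4.55, 4.77 and 3.87 on day 4 and 4.98, 5.99 and 4.67 on day 8. It was lower than day 0 on day 2 (-1.09, SE 0.31, adjusted p = 0.0115) and day 4 (-1.51, SE 0.31, adjusted p = 0.00175), and the day 2 call ended without replicate 1 of day 0 or of day 2 (adjusted p up to 0.057). Col6a6, a relative of Col6a3, read 4.61, 4.22 and 4.22 on day 0 and 6.24, 5.09 and 5.09 on day 8 (1.12, SE 0.25, adjusted p = 0.00545). Replicate 1 carried that rise, which without it was 0.74 and not called. Col6a6 was above the array median on 9 arrays, all of them satellite arrays, so it entered the tests through that cell type. Col26a1 rose from 5.06, 5.28 and 5.47 on day 2 to 6.19, 6.70 and 6.57 on day 4 (1.22, SE 0.30, adjusted p = 0.0077), and on day 8 it read 7.13, 5.31 and 5.73.

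**Figure D3:**
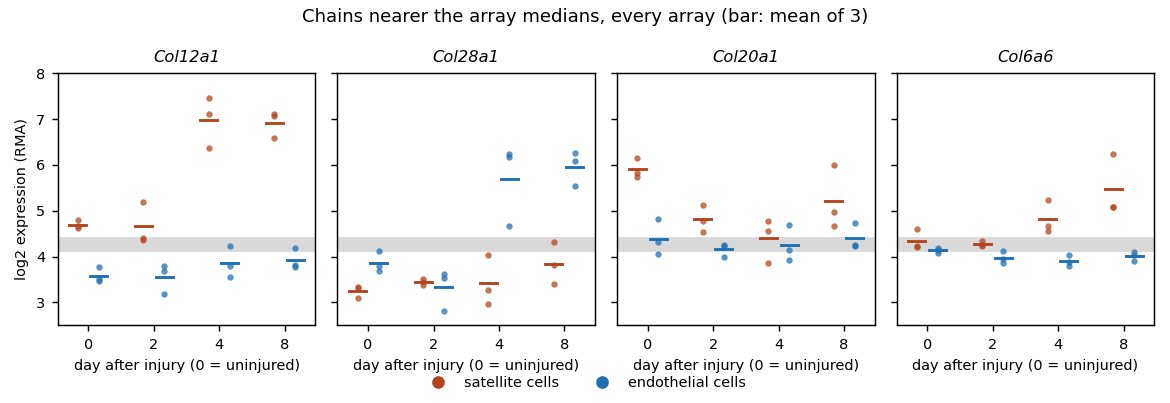
Log2 expression (y axis) by day after injury (x axis) for Col12a1, Col28a1, Col20a1 and Col6a6; each point is 1 array, each bar the mean of 3 arrays, red satellite cells, blue endothelial cells, and the grey band spans the array medians. Col12a1 leaves the band in satellite cells from day 4, and Col28a1 in endothelial cells from day 4.

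Of the 29 tested genes, 11 were called in no comparison: Col2a1, Col11a2 and Col27a1 among the fibrillar chains, Col9a2 and Col16a1 among FACIT chains, Col8a1 and Col10a1 of the short chain network group, the transmembrane collagens Col13a1, Col17a1 and Col23a1, and Col7a1, which anchors skin to its base. Their largest absolute difference was 1.22, for Col8a1, an endothelial and smooth muscle network collagen, between satellite and endothelial cells on day 8. Without replicate 2 of satellite day 2, Col8a1 was called there (adjusted p = 0.0467) and from satellite day 2 to day 4 (1.42, adjusted p = 0.0415). The 15 genes that did not pass the filter were Col11a1, Col24a1, Col4a3, Col4a4, Col4a5, Col4a6, Col6a4, Col6a5, Col9a1, Col9a3, Col14a1, Col19a1, Col22a1, Col8a2 and Col25a1, with values from 2.08 to 4.54. They include the type IV chains of kidney, lung and eye basement membranes, so only 2 of the 6 type IV chains could be tested. Of the tested genes, Col10a1, Col17a1, Col28a1 and Col6a6 were above the median on fewer than 10 arrays.

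Of 9 tested fibrillar chains, 6, 3, 6 and 6 were higher in satellite cells on days 0, 2, 4 and 8, and of 4 tested type VI chains 3, 3, 3 and 4 were. Col5a1 (0.78, adjusted p = 0.0442) and Col5a2 (0.96, adjusted p = 0.0114) fell short of the minimum difference on day 2. Of 4 tested basement membrane chains, 0 were called on day 0 by limma, with Col4a2 lower at an unadjusted p below 0.05, and 3 were lower on each later day. Over all collagen genes on day 2, 7 were higher in satellite cells and 3 lower, with 12.1% of all genes called (5.82% higher and 6.31% lower). On day 4 the counts were 11 and 4, with 12.9% of all genes called (5.2% and 7.73%), and on day 8 they were 11 and 4, with 13.9% (7.05% and 6.88%). The 7 genes Col1a1, Col1a2, Col3a1, Col6a1, Col6a2, Col6a3 and Col12a1 were higher in satellite cells on all 4 days. Of these, Col12a1 entered the tests mainly through satellite arrays, and its endothelial group means were below the array medians on all 4 days. Col4a1, Col4a2 and Col15a1 were lower in satellite cells on days 2, 4 and 8. On day 0 none of the 3 was called, although Col4a2 was nearly so (-0.91, adjusted p = 0.0456) and passed without replicate 2 of satellite day 0 (-1.09) or replicate 3 of endothelial day 0 (-1.08). Col28a1 joined them on days 4 and 8, at -2.26 (SE 0.36, adjusted p = 8.99e-05) and -2.12 (SE 0.36, adjusted p = 0.000186), having entered the tests only through its high endothelial arrays of those days.

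Among basement membrane chains the gap was widest on day 4. Col4a1 was lower in satellite than in endothelial cells by -2.12 on day 2 (SE 0.39, adjusted p = 0.000725), -2.51 on day 4 (SE 0.39, adjusted p = 8.32e-05) and -1.40 on day 8 (SE 0.39, adjusted p = 0.0143). The Col4a2 differences were -2.07, -2.57 and -1.66 (SE 0.32, adjusted p = 0.000146, 7.21e-06 and 0.000711). For Col15a1 they were -1.72, -2.71 and -1.26 (SE 0.41, adjusted p = 0.00568, 6e-05 and 0.0357), and on day 2 replicate 2 of the satellite arrays, at 7.38, lay above the lowest endothelial array, at 7.30. Some of these calls rest on single arrays. The Col15a1 call was lost on day 2 without satellite replicate 1 (-1.30, adjusted p = 0.0548) and on day 8 without satellite replicate 1 or 3 or any endothelial replicate of that day (-1.37 to -1.13, adjusted p up to 0.116), and the Col4a1 call on day 8 was lost without replicate 1 of either cell type (adjusted p = 0.068 at most). Col18a1 was called on no day, its largest difference being -0.999 on day 4 (adjusted p = 0.0819), which was called without replicate 3 of endothelial day 4 (-1.28, adjusted p = 0.0477).

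Several other chains were higher in satellite cells. Col12a1 was higher in satellite cells by 3.12 on day 4 (SE 0.28, adjusted p = 1.02e-07) and 2.99 on day 8 (SE 0.28, adjusted p = 1.75e-07), and Col5a2 by 2.79 on day 4 (SE 0.25, adjusted p = 1.22e-07). Col1a2 was higher by 2.37, 2.57 and 2.44 on days 2, 4 and 8 (adjusted p = 0.000112, 2.29e-05 and 4.17e-05) beside 2.07 on day 0. Col3a1 had gaps of 2.16, 1.94 and 2.48, beside 3.68 on day 0, and the reduction was called on days 2 and 4 in the test of responses given further on. Col6a3 and Col6a1 were higher by 2.76 and 2.60 on day 8. The calls for Col6a2 on day 2 (1.12, adjusted p = 0.0256; lost without satellite replicate 2 or 3 or endothelial replicate 2 or 3 of that day), Col6a1 on day 2 (1.57; lost without endothelial replicate 2, adjusted p = 0.0525), Col12a1 on day 2 (1.10; 0.83 without satellite replicate 2) and Col1a1 on day 4 (1.54; lost without endothelial replicate 2, adjusted p = 0.0669) rested on single arrays.

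**Figure D4:**
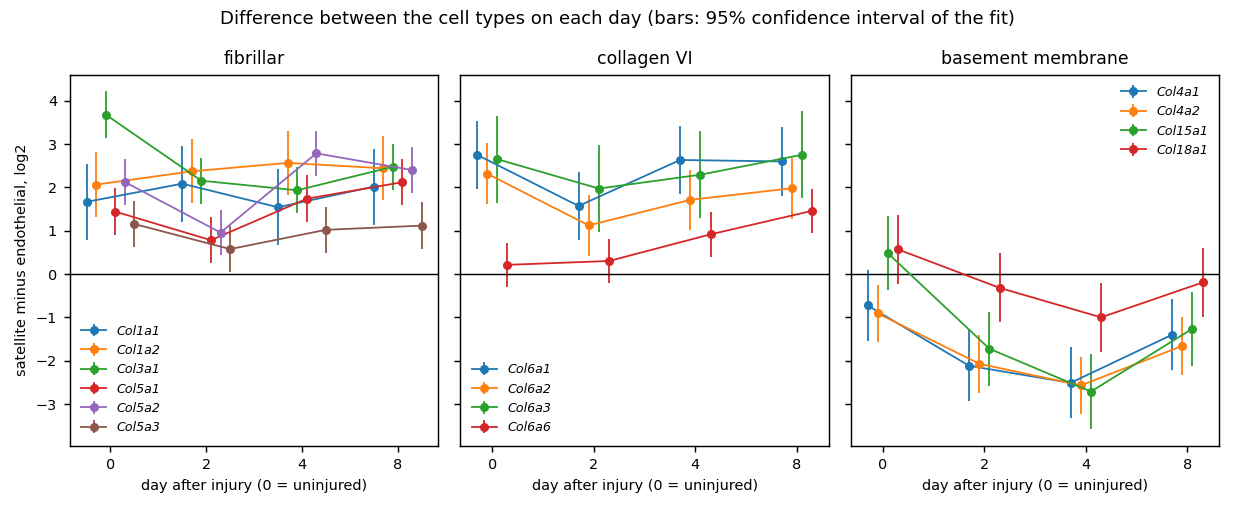
Log2 difference between satellite and endothelial cells (y axis, above 0 is higher in satellite cells) on each day (x axis) for 6 fibrillar chains (types I, III and V) and the 4 tested type VI and 4 tested basement membrane chains; points are the fitted differences and bars the 95% confidence intervals. The points of the fibrillar and type VI chains shown are above 0 on all days, and those of Col4a1, Col4a2 and Col15a1 are below it on days 2, 4 and 8.

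Whether the 2 cell types responded differently was tested on the change from day 0 in satellite cells minus the change in endothelial cells. On day 2, 3 collagen genes were called, all negative, where 11.5% of all genes were called and 5.03% were negative: Col15a1 at -2.21 (SE 0.58, adjusted p = 0.0163), Col3a1 at -1.53 (SE 0.36, adjusted p = 0.00833) and Col5a2 at -1.17 (SE 0.36, adjusted p = 0.0367). On day 4, 4 were called against 4.24% of all genes: Col15a1 at -3.19 (SE 0.58, adjusted p = 0.0022), Col3a1 at -1.75 (SE 0.36, adjusted p = 0.0061), Col4a2 at -1.66 (SE 0.45, adjusted p = 0.0391) and Col12a1 at 2.01 (SE 0.39, adjusted p = 0.00393). On day 8 only Col12a1 was called (1.88, SE 0.39, adjusted p = 0.0112), where 2.2% of all genes were called and 1.39% were positive. Thus Col15a1 and Col3a1 changed more positively in endothelial cells and Col12a1 in satellite cells. Col12a1 was above the array median on 13 arrays, of which 1 was endothelial, so it entered the tests mainly through satellite arrays. Its endothelial group means lay below the array medians on every day (-0.60, -0.61, -0.34 and -0.34), where a change could be missed. The type I chains were not called, with day 4 intervals from -1.36 to 1.12 for Col1a1 and from -0.55 to 1.55 for Col1a2, which are too wide to show that the cell types rose alike.

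Single arrays mattered to these differences too. On day 2, 7 collagen genes were called without satellite replicate 2, adding Col4a1 (-2.03, adjusted p = 0.00188), Col4a2 (-1.68, adjusted p = 0.00193), Col6a2 (-1.53, adjusted p = 0.0267) and Col18a1 (-1.45, adjusted p = 0.0315), whereas 1 was called without satellite day 2 replicate 1 or satellite day 0 replicate 2, and Col15a1 was lost there (-1.78, adjusted p = 0.057, and -1.90, adjusted p = 0.0507). The Col5a2 call was lost without any 1 of 9 of the 12 arrays of day 0 and day 2, the exceptions being satellite day 0 replicate 1, satellite day 2 replicate 2 and endothelial day 2 replicate 3. The Col4a2 call on day 4 was lost without any 1 of 10 of the 12 arrays of day 0 and day 4, the exceptions being satellite day 0 replicate 1 and endothelial day 0 replicate 2. Without satellite day 2 replicate 2, Col4a1 (-1.79, adjusted p = 0.00891) and Col18a1 (-1.57, adjusted p = 0.0337) were added on day 4, and without replicate 1 Col4a1 was (adjusted p = 0.0325). On day 8, 2 genes were called without satellite day 2 replicate 1 (adding Col3a1 at -1.20, adjusted p = 0.042), satellite day 2 replicate 2 (adding Col15a1 at -1.74, adjusted p = 0.0403) or satellite day 8 replicate 2 or 3. The day 0 arrays enter all 3 of these comparisons, which are therefore not independent.

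Some genes that fold, cut and crosslink collagen were called. Of 20 tested genes of folding and modification, 2 were higher and 3 lower in satellite cells on day 2, 1 and 2 on day 4, and 1 and 0 on day 8. These shares of 25%, 15% and 5% were near those of all genes, 20.5%, 12% and 6.38%. Plod2, which hydroxylates the lysines that form stable crosslinks, read 3.98, 5.72 and 5.57 on day 0, 5.56, 6.85 and 7.14 on day 4 and 7.33, 6.61 and 7.28 on day 8, with rises of 1.42 (SE 0.42, adjusted p = 0.0233) and 1.98 (SE 0.42, adjusted p = 0.00415). P3h2, a prolyl hydroxylase that acts on type IV collagen, fell by 2.02 on day 2 and by 3.11 on day 4 (adjusted p = 0.000809 and 1.94e-05). Among 7 tested crosslinking genes, Lox, the lysyl oxidase of fibrillar collagen, read 5.08, 5.39 and 5.58 on day 0 and 6.61, 8.24 and 8.13 on day 4, a rise of 2.31 (SE 0.48, adjusted p = 0.00166). Pxdn, which makes the bonds of the type IV network, was higher on day 8 (1.47, SE 0.37, adjusted p = 0.0126). Of 5 tested propeptide cleavage genes, 1 was lower on day 2 (Pcolce, -1.13), 1 higher on day 4 (Pcolce2, 1.22) and 0 were called on day 8 by limma, with 0 at an unadjusted p below 0.05.

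In endothelial cells the folding genes Colgalt1, which adds sugar to collagen, and Serpinh1, the collagen chaperone, rose on day 2 by 1.35 (SE 0.22, adjusted p = 0.000487) and 1.13 (SE 0.33, adjusted p = 0.0363). Tll1, a protease that trims procollagen, read 4.81, 4.96 and 5.21 on day 0 and 6.42, 7.75 and 7.49 on day 4 (2.23, SE 0.40, adjusted p = 0.00143). Of 7 tested crosslinking genes limma called 0 in endothelial cells on days 2, 4 and 8, with 1, 1 and 2 higher at an unadjusted p below 0.05. Of 10 tested receptor genes, 1 was higher and 6 lower on day 2 in satellite cells, 0 and 2 on day 4, and limma called 0 on day 8, with 0 at an unadjusted p below 0.05. The shares over all genes were 20.5%, 12% and 6.38%. Itga1, a collagen-binding integrin chain, fell there by 2.56 on day 4 (adjusted p = 0.00029). In endothelial cells 1 receptor gene was higher and 0 lower on day 2, 1 and 1 on day 4, and 1 and 0 on day 8, where 6.73%, 5.33% and 2.05% of all genes were called. The higher one was Itga2, another collagen-binding integrin chain, which read 4.45, 4.22 and 4.14 on day 0, 6.66, 5.92 and 6.62 on day 2, 7.00, 7.21 and 6.37 on day 4 and 6.40, 5.74 and 7.12 on day 8. All injured arrays were above the uninjured ones, by 2.13, 2.59 and 2.15 (SE 0.36, adjusted p = 0.000659, 8.66e-05 and 0.00143), and the change differed from that in satellite cells on each day (-2.28, -2.58 and -2.21).

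Collagen-degrading enzymes were called in both cell types. In satellite cells on day 2, 3 of 9 were higher and 2 lower, where 20.5% of all genes were called. Mmp9 and Mmp8, proteases abundant in neutrophils, rose by 4.22 and 3.44 (adjusted p = 3.6e-07 and 7.38e-07) in the arrays with the high leukocyte gene mean, while Mmp2 and the fibroblast protease Fap fell by 2.78 and 2.59. Mmp13, a collagenase, was higher on day 4 (2.61, SE 0.61, adjusted p = 0.00439). In endothelial cells 2 of the 9 were higher and 1 lower on day 2, 3 and 0 on day 4, and 2 and 0 on day 8, against 6.73%, 5.33% and 2.05% of all genes. There Mmp14, the membrane-bound collagenase, read 6.57, 6.16 and 5.07 on day 0, 9.41, 9.20 and 9.57 on day 2, 8.96, 9.21 and 9.30 on day 4 and 8.56, 8.26 and 8.66 on day 8. These rises of 3.46, 3.23 and 2.56 (SE 0.31) brought it near the range of the satellite arrays, where Mmp14 read 8.01 to 9.40 on all days.

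Many genes of fibril assembly fell in the satellite arrays. On day 2, 6 of 11 tested were lower and 1 higher, and on day 4, 6 were lower and 2 higher, where 20.5% and 12% of all genes were called and 9.67% and 5.47% were lower. Dpt and Prelp, small proteins that bind collagen fibrils, fell on day 2 by 5.34 (SE 0.54, adjusted p = 2.44e-07) and 4.00 (SE 0.48, adjusted p = 1.92e-06), and Tnxb, tenascin-X, which regulates fibril spacing, fell by 4.00 on day 4 (SE 0.23, adjusted p = 4.79e-10). Fn1, the fibronectin of the early wound matrix, rose by 2.57 on day 2 and 2.04 on day 4 (adjusted p = 0.000171 and 0.00289). Lum, a fibril-binding proteoglycan, read 3.31, 3.45 and 2.86 on day 0 and 5.26, 6.83 and 6.79 on day 8, a rise of 3.09 (SE 0.48, adjusted p = 0.000208). Dpt and Lum are also among the fibroblast genes, whose mean in satellite arrays was 6.47 ± 0.07 on day 0 and 5.45 ± 0.12 on day 2 (SD, n = 3). On day 2 the leukocyte gene mean was 10.12 ± 0.95 (SD, n = 3). The part of other cells in these changes was not tested. In endothelial cells Postn, which binds type I collagen, was higher by 3.20 on day 4 (SE 0.43, adjusted p = 5.8e-05) and 3.07 on day 8 (SE 0.43, adjusted p = 0.000269).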

How the data were processed

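RNA of 24 sorted cell samples was amplified from 750 pg with Nugen Ovation Pico V2, per the labels' protocols, and read on mouse gene arrays. The deposited values are log2 expression that the authors summarised with RMA, per the submitters' processing notes, whose version is not stated; RMA evens out the distribution across arrays, so a change shared by most genes would not be seen. No scanner files or dates were used. Of 24479 probe sets, 23281 had 1 gene symbol, and 1198 without a symbol were not used. Groups came from sample titles, because 2 other label fields conflict with them: cell type in 12 of the 24 samples and time point in 18, while both match in 2. Array numbers run by day, so their order cannot be told apart from day.

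Genes above the array's median on at least 3 arrays (14064) were fitted with limma 3.58.1 in R 4.3.3, all 24 arrays together with 1 mean per group and 16 residual degrees of freedom. Benjamini-Hochberg adjustment ran over all of these genes in each of 17 comparisons. Replicates are labelled biological, and with 3 arrays per group their number limits the precision. The fit was tested on simulated data. In 12 pairs of equal replicate number and day across cell types, deviations correlated from -0.06 to 0.20, with 4 over 0.1, so arrays were not treated as paired. Alternatives were other filters, median centring, fits on the groups compared, array weights, a trended prior, replicate blocks and leaving out each array; leaving out the 3 satellite day 2 arrays was added after seeing the data. The rule for named genes took 12 anchor chains, up to 5 called rises and 5 falls per comparison (3 for differences of responses), up to 2 of each per partner list, and the genes that failed the filter. The members and lists were chosen with earlier results of these data known. Promoter sequences are from RefSeq.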

Additional observations from a re-analysis of the deposited data

Results flagged for a closer look

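For 5 collagen genes, differences between the cell types' responses to injury were called by limma on 1 or more days, each being the change from day 0 in satellite cells minus that in endothelial cells. On day 2 these were -2.21 for Col15a1 (adjusted p = 0.0163), -1.53 for Col3a1 (adjusted p = 0.00833) and -1.17 for Col5a2 (adjusted p = 0.0367). On day 4 they were -3.19 for Col15a1 (adjusted p = 0.0022), -1.75 for Col3a1 (adjusted p = 0.0061), -1.66 for Col4a2 (adjusted p = 0.0391) and 2.01 for Col12a1 (adjusted p = 0.00393). On day 8 Col12a1 differed by 1.88 (adjusted p = 0.0112). Col15a1 on day 4 combined an endothelial rise of 2.96 with a satellite difference of -0.23 that was not called, and Col12a1 on day 8 a satellite rise of 2.22 with an endothelial difference of 0.34 that was not called. The endothelial group means of Col12a1 were below the array medians on every day, where a change could be missed. Col3a1 on day 2 was a satellite fall of -1.77 beside an endothelial difference of -0.24. On that day the satellite arrays had a leukocyte gene mean of 9.02 to 10.69, whose part was not tested.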

How the results depend on the processing

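Across 35 settings, 62 of 87 called values of named collagen genes stayed called in every one, 25 were lost in 1 or more, and 0 reversed. Leaving out 1 array at a time, the collagen genes called relative to day 0 ranged from 3 to 8 (satellite day 2), 3 to 6 (satellite day 4), 4 to 6 (satellite day 8), 1 to 2 (endothelial day 2), 5 to 7 (endothelial day 4) and 3 to 8 (endothelial day 8). Between later days the ranges were 7 to 10 and 0 to 3 in satellite cells and 2 to 4 and 0 to 0 in endothelial cells, between cell types 11 to 12, 8 to 10, 13 to 15 and 13 to 16 on days 0, 2, 4 and 8, and for the difference of responses 1 to 7, 3 to 6 and 1 to 2 on days 2, 4 and 8. With array weights, the counts were 8 for satellite day 2 and 8 for endothelial day 8 against day 0, 3 for satellite day 8 against day 4, and 6, 7 and 3 for the differences of responses. With only the arrays of the groups compared, which leaves fewer samples to estimate the spread, 0 were called from endothelial day 2 to day 4, 3 between cell types on day 2 and 1 in the day 2 difference of responses. Centring arrays on their medians gave 2 for the day 8 difference of responses. Without the 3 satellite day 2 arrays, an alternative chosen after seeing the data, 3 were called from satellite day 4 to day 8, 8 for endothelial day 8 and 3 for the day 8 difference of responses. With the replicate number as a block, the consensus correlation was 0.041 (0.048 for the number in the array name), and 0 of 378 named values changed their call. Signal near the array medians limits Col12a1, Col28a1, Col6a6 and Col5a2 in endothelial cells.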

Other observations

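Markers of muscle fibres and tendon cells were also measured in the satellite arrays in which type I chains were high. The mean of 8 muscle fibre genes was 7.42, 7.02 and 7.49 on day 0 and 7.98, 10.54 and 10.55 on day 8, when 6 of the 8 were called higher. Replicate 1 of day 8 was thus the lowest of its group. In the same arrays Col1a1 read 8.75, 8.95 and 8.49, lowest in replicate 3. Col1a2 read 8.17, 8.65 and 8.89, lowest in replicate 1. The mean of 7 tendon cell genes was 4.53, 4.67 and 4.71 on day 0 and 5.41, 6.47 and 6.24 on day 8, and 1 of its 5 tested genes was called higher. Over all genes, 4.38% were called higher on day 8 than on day 0. The part of these cells in the collagen values was not tested.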
